A study of Mus musculus with 30 samples.

Results

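The MAP kinase phosphatases examined here were 8 genes of the dual-specificity phosphatase (Dusp) family, Dusp1, Dusp2, Dusp4, Dusp5, Dusp6, Dusp7, Dusp10 and Dusp16, taken by gene symbol from RNA sequencing of mouse cells. All 8 were listed in each of 3 expression tables, among 11740 genes in sorted LSK cells, 11275 in bone marrow and 20619 in cultured stromal cells. The 30 libraries modelled therapy-related myeloid neoplasms in C57BL/6 mice. LSK cells (Lin-, Sca1+, Kit+, the marrow fraction that holds stem and progenitor cells) came from 4 groups of 3. The 3 transplanted groups were sorted about 2 months after transplantation and before any disease. EAP_E cells were Egr1+/-, Apc del/+ with a Trp53 shRNA, and both donor and recipient received ENU, an alkylating mutagen. EAP cells had the same alleles and shRNA without ENU. WT_X cells were wild type, carried a luciferase shRNA and were transplanted, and WT cells were wild type with no shRNA and no transplant. All transplants went into wild type recipients.

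Bone marrow came from 6 mice with AML (acute myeloid leukaemia) and 6 with MDS (myelodysplastic syndrome), and every one of these 12 grafts was Egr1+/-, Apc del/+. The AML grafts carried a Trp53 shRNA, and 3 of them (AML 1, 4 and 5) had ENU given to donor and recipient, 1 (AML 6) to the recipient alone and 2 (AML 2 and 3) no ENU. The MDS grafts carried a luciferase shRNA, and ENU had been given to donor and recipient in all 6. Disease, Trp53 knockdown and, in part, ENU therefore cannot be told apart between AML and MDS. Marrow was taken whole, with no sort for graft cells named in the labels. Age and sex, not given in the sources used here for any group, could not be compared. Mesenchymal stromal cells were grown from compact bone of untransplanted wild type mice to passage 1 or 2. Of these mice, 3 (ENU) had received 100 mg/kg ENU and 3 (mock) 10% ethanol, 1 month earlier. Libraries are named by group and number.

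MAP kinases such as ERK, JNK and p38 are switched on by phosphorylation of a threonine and a tyrosine in their activation loop. Dual-specificity phosphatases remove both phosphates, and many of their genes are themselves induced by the pathway they shut off, so that they serve as negative feedback. In blood cells Dusp2 is known as a phosphatase of activated lymphocytes, and Dusp6 is widely read as an output of ERK signalling. By location and preference, Dusp1, Dusp2, Dusp4 and Dusp5 are inducible nuclear enzymes, Dusp6 and Dusp7 are cytoplasmic and prefer ERK, and Dusp10 and Dusp16 prefer JNK and p38.

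The 250 bases upstream of RefSeq's annotated start (GRCm38.p6, the assembly of mm10) were read for 7 of the 8 genes, and searched on both strands for sites of factors that act below MAP kinases. Shown are the 3 genes with the lowest adjusted p-values in AML against MDS marrow below, with the sites named next in capitals. Dusp1 (17:26508473-26508722, minus strand) held a cyclic AMP response element, TGACGTCA, and an E-box, CACGTG. Dusp2 (2:127335909-127336158, plus strand) held an E-box and an EGR site, GCGNGGGCG, the motif bound by Egr1. Dusp5 (19:53528895-53529144, plus strand) held a pair of adjoining SRF CArG boxes, the element through which serum response factor acts.
Dusp1: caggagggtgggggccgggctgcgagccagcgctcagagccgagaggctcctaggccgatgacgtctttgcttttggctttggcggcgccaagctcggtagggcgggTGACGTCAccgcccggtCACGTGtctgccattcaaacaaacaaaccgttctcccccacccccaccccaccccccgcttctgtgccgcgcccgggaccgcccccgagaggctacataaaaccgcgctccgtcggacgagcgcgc
Dusp2: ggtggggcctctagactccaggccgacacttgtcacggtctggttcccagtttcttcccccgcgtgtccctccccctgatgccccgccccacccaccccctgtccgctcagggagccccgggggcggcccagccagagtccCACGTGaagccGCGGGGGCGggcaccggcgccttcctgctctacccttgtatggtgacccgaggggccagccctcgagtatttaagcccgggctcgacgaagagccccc
Dusp5: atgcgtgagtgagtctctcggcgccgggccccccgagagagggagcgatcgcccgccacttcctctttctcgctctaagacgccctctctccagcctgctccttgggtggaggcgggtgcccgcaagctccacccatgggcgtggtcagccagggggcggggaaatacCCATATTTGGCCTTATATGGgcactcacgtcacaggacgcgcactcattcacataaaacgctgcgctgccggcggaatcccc
Of 32851 mouse promoters of this length, 1.55% held the full cyclic AMP response element, 6.02% the E-box, 4.70% the EGR site and 1.47% a CArG box. The response element contains its core TGACG, which alone was present in 17.8% of promoters. Outside a full element, this core lay 191 bases upstream of the start in Dusp1, 55 in Dusp5 and 70 in Dusp16. Such cores are left in lower case. Dusp16 held an EGR site, and Dusp6, Dusp7 and Dusp10 held none of these nor an AP-1 site (TGANTCA, in 6.75% of promoters). GENCODE, used for gene positions below, starts some of these genes further upstream. All 250 bases of the Dusp1 and Dusp10 windows and 36 of the Dusp5 window lie inside its span of the gene. A match is a description of letters and not a binding site shown to be used.

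The deposited LSK and marrow values are normalised values per gene (summed values of 808377 to 1437201 and 803746 to 1118648 per library), and the stromal values are TPM (924162 to 939600). Depth is known for marrow alone, at 17341986 to 21698808 recovered reads per library. Trp53 was at 65.5 to 173 in the 6 LSK libraries labelled with the Trp53 shRNA and 213 to 370.4 in the other 6, and at 23.0 to 58.0 in AML and 43.2 to 97.9 in MDS. Egr1 and Apc overlapped between all haploinsufficient and wild type LSK groups. The transplant label of EAP 1 names wild type marrow, against its other labels. In LSK cells WT 2, WT_X 3 and EAP 1 stood apart, with the opposite sign to the other 9 on a first principal component that held 49.8% of the variance, and in stromal cells mock 3 and ENU 3 did (57.8%). In marrow AML 3 stood apart most, with a median correlation of 0.635 with the other libraries. LSK cells listed all 10 stem and progenitor genes looked up (Kit at 65.3 to 598 and Cd34 at 981 to 1627). Stromal cells listed all 10 stromal genes. Among genes of blood and endothelial cells there, the pan-leukocyte gene Ptprc was at 0.0565 to 1.29 TPM. Cd68 was at 5.11 to 91.4 TPM, highest in mock 3 and ENU 3. Pecam1 and Cdh5 were highest in mock 2 (13.1 and 8.14 TPM) and next in ENU 2 (6.87 and 5.29 TPM). Csf1r and Adgre1 reached 5.79 and 2.23 TPM, both in ENU 2.

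Dusp1 had the highest median of the 8 per length of exon in each table, and the order below it differed between the 3 kinds of cell. It was the highest member in 9 of 12 LSK, 11 of 12 marrow and 6 of 6 stromal libraries, and in EAP_E 2, EAP_E 3, WT 3 and AML 3 Dusp2 was above it. In LSK cells the median normalised value per kilobase was 337 for Dusp1, 117 for Dusp2, 31.9 for Dusp6, 11.7 for Dusp5, 6.90 for Dusp7, 1.81 for Dusp10, 1.19 for Dusp4 and 0.153 for Dusp16. In marrow the median per kilobase was 400.4 for Dusp1, 38.7 for Dusp6, 28.4 for Dusp2, 5.74 for Dusp7, 4.78 for Dusp5, 3.41 for Dusp16, 2.42 for Dusp10 and 0.763 for Dusp4, and neighbours in the order overlapped in range in both tables. In stromal cells the median was 129 TPM for Dusp1, 30.6 for Dusp7, 30.2 for Dusp6, 15.2 for Dusp10, 14.0 for Dusp16, 13.6 for Dusp4 and 7.43 for Dusp5. There Dusp1 lay above all others, Dusp7 and Dusp6 overlapped and lay above Dusp10, and Dusp10, Dusp16, Dusp4 and Dusp5 overlapped. Dusp2, second in LSK cells, was last in stromal cells at 0.150 to 0.471 TPM, below the minimum value of 1 needed for testing. Dusp16, last in LSK cells, lay at 12 to 16.7 TPM in stromal cells. The tables were normalised separately, so levels are ordered within a table and not set across them.

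**Figure D1:**
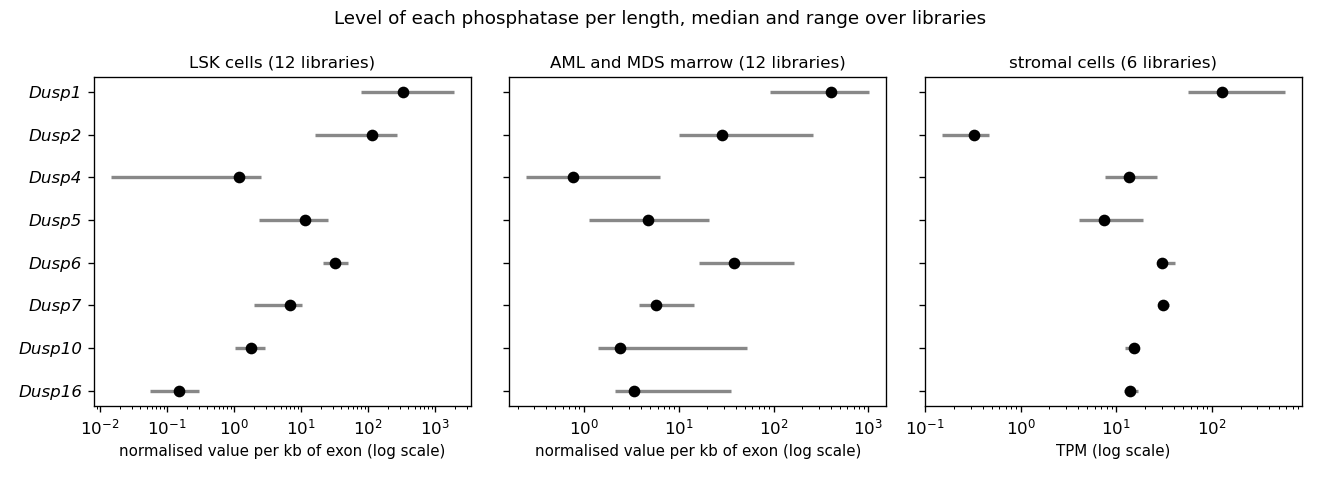
Level of each phosphatase per length of exon in LSK cells, marrow and stromal cells, on log axes (normalised value per kilobase of exon in the left and middle panels, TPM in the right one); points are medians and lines the range over all libraries of the table. Dusp1 has the highest median in each panel, and Dusp2 is second in LSK cells and last in stromal cells.

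In marrow, Dusp2 and Dusp5 were higher in AML than in MDS, and these were the members past the threshold (adjusted p under 0.05 over all genes, limma on log2 of the value plus 1). These 2 of 8 members stand against 0.994% of the 11273 genes tested called higher and 3.20% called in either direction. Both also had all AML libraries above all MDS libraries, which held for 1.71% of genes in this direction. No member was called lower, against 2.21% of genes. The median change of the 8 members was 0.86 on the log2 scale, with members from -1.32 to 2.12, and that of all genes 0.04. The changes of Dusp6, Dusp7 and Dusp16 turned sign in a fit that left out a single library. Changes of level in whole marrow cannot tell fewer cells of a type from less RNA per cell.

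Dusp5, a nuclear phosphatase specific for ERK, lies on chromosome 19 at 53529109 to 53542431 (mm10, plus strand). Its normalised values were 29.2, 31.8, 22.4, 51.9, 14.1 and 47.4 in AML 1 to 6, against 4.13, 7.63, 2.81, 8.95, 9.55 and 8.94 in MDS 1 to 6. The lowest AML library was above the highest MDS library, and these values rested on 316 to 1092 recovered reads in AML and 53 to 181 in MDS. Dusp5 averaged 32.8 ± 14.5 in AML and 7.0 ± 2.84 in MDS (SD, n = 6 each), and its log2 change was 2.05 ± 0.35 (SE, limma adjusted p = 0.0336). edgeR on the recovered reads gave 2.23 (adjusted p = 0.0440). An antisense gene, AC137853.2, overlaps Dusp5, and since the strand setting of the counting is not given, their reads cannot be told apart.

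Dusp2, a nuclear phosphatase induced in activated blood cells, lies on chromosome 2 at 127336159 to 127338376 (plus strand) and overlaps no other annotated gene. It was 68.8, 129, 423, 212, 46.2 and 187 in AML 1 to 6, against 18.0, 34.2, 16.3, 43.3, 45.7 and 43.4 in MDS 1 to 6. AML 3 was highest, and AML 5 at 46.2 was just above MDS 5 at 45.7. The means were 178 ± 136 in AML and 33.5 ± 13.3 in MDS (SD, n = 6 each), and the log2 change was 2.12 ± 0.49 (SE, limma adjusted p = 0.0435), and edgeR gave 2.41 (adjusted p = 0.0440).

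Both calls depended on single libraries, and that of Dusp2 also on the settings, since it was lost with a pseudocount of 0.1 (limma adjusted p = 0.0506) and with a replicate block (adjusted p = 0.0906). Dusp5 passed without AML 1, 2, 3 or 4 and Dusp2 without AML 1, 2 or 3. Neither passed without AML 5, AML 6 or any 1 of the MDS libraries, fits in which 0 genes were called, or 1 gene without MDS 4. The change itself stayed at 1.86 to 2.26 for Dusp5 and 1.80 to 2.44 for Dusp2 over these 12 fits, and the adjusted p at 0.00777 to 0.102 for Dusp5 and 0.0116 to 0.106 for Dusp2. Counts over all genes moved in the same way, being 361 with all libraries and 2475 without AML 1.

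**Figure D2:**
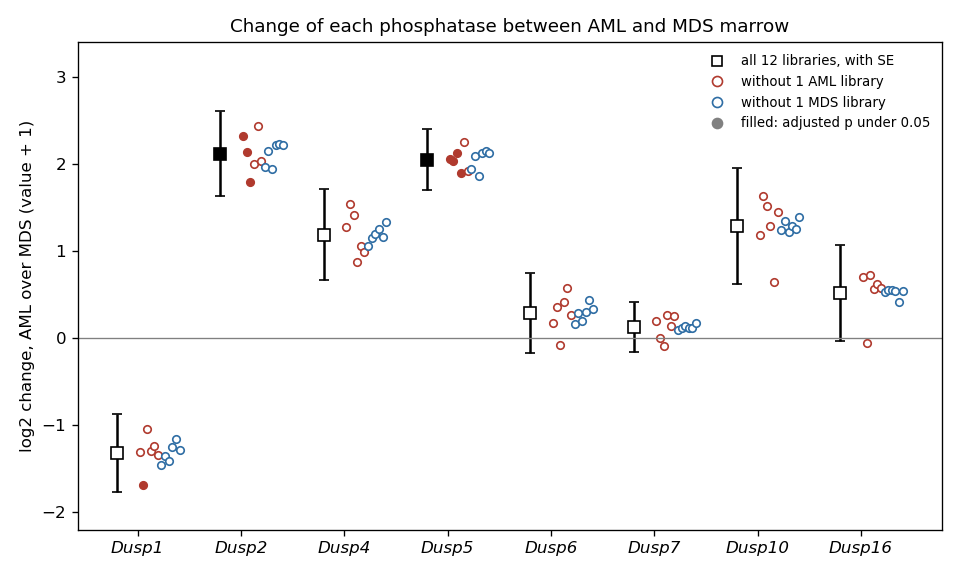
Log2 change of each phosphatase between AML and MDS marrow (vertical axis, AML over MDS, on value plus 1), with squares and SE bars for all 12 libraries and circles for the fits without 1 AML (red) or 1 MDS (blue) library; filled symbols have an adjusted p under 0.05. Dusp2 and Dusp5 lie near 2 in every fit, and Dusp1 lies between -1.69 and -1.05.

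Dusp1, an immediate early gene whose product acts on p38, JNK and ERK in the nucleus, was 536, 1998, 216, 525, 423 and 593 in AML 1 to 6, against 865, 1237, 1035, 1772, 2427 and 1553 in MDS 1 to 6. In 5 AML libraries it was below every MDS library, and AML 2 was above all MDS libraries but MDS 5. The log2 change was -1.32 ± 0.45 (SE) and did not pass with all libraries (limma adjusted p = 0.0931). Without AML 2 it was -1.69 and passed (adjusted p = 0.0471). Dusp1 (chromosome 17, 26505590 to 26562128, minus strand) overlaps Ergic1 and other genes, so its count may hold reads of theirs.

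Dusp4, the remaining nuclear member, was low in marrow. It was 3.50, 0.854, 1.82, 17.3, 8.48 and 11.5 in AML 1 to 6, against 0.679, 1.26, 1.75, 2.36, 1.39 and 3.26 in MDS 1 to 6. AML 4, 5 and 6 stood well above MDS, while AML 2 and 3, both without ENU, lay within the MDS range. The log2 change of 1.19 ± 0.52 did not pass (limma adjusted p = 0.153).

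Of the cytoplasmic ERK phosphatases neither passed. Dusp6 was 183, 97.9, 457, 81.5, 45.5 and 137 in AML 1 to 6, against 66.2, 106, 77.3, 110, 175 and 121 in MDS 1 to 6, a log2 change of 0.29 ± 0.46 (limma adjusted p = 0.688). AML held both the highest library, AML 3, and the lowest, AML 5. Dusp7 was 16.2, 33.1, 46.9, 12.4, 20.5 and 13.5 in AML 1 to 6, against 16.8 to 23.3 in MDS (log2 change 0.13 ± 0.29, limma adjusted p = 0.787). AML 2 and AML 3 lay above every MDS library, and AML 1, 4 and 6 below.

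The phosphatases of JNK and p38 each had 1 AML library far above the other AML libraries. Dusp10 was 24.1, 4.31, 6.89, 16.4, 161 and 9.08 in AML 1 to 6, against 5.04, 7.84, 4.61, 6.26, 5.28 and 9.34 in MDS 1 to 6. AML 1 and AML 4, as well as AML 5, were above every MDS library. The value of AML 5 rested on 3615 reads, and the highest MDS library held 189. The log2 change of 1.29 ± 0.67 did not pass (limma adjusted p = 0.209). Dusp16 was 18.4, 266, 16.1, 29.8, 24.6 and 28.1 in AML 1 to 6, against 16.4 to 26.4 in MDS (0.52 ± 0.55, limma adjusted p = 0.532). Its value in AML 2 rested on 5925 reads, against 308 to 522 in MDS. Both genes overlap a gene on the opposite strand (1700056E22Rik and Gm36328).

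**Figure D3:**
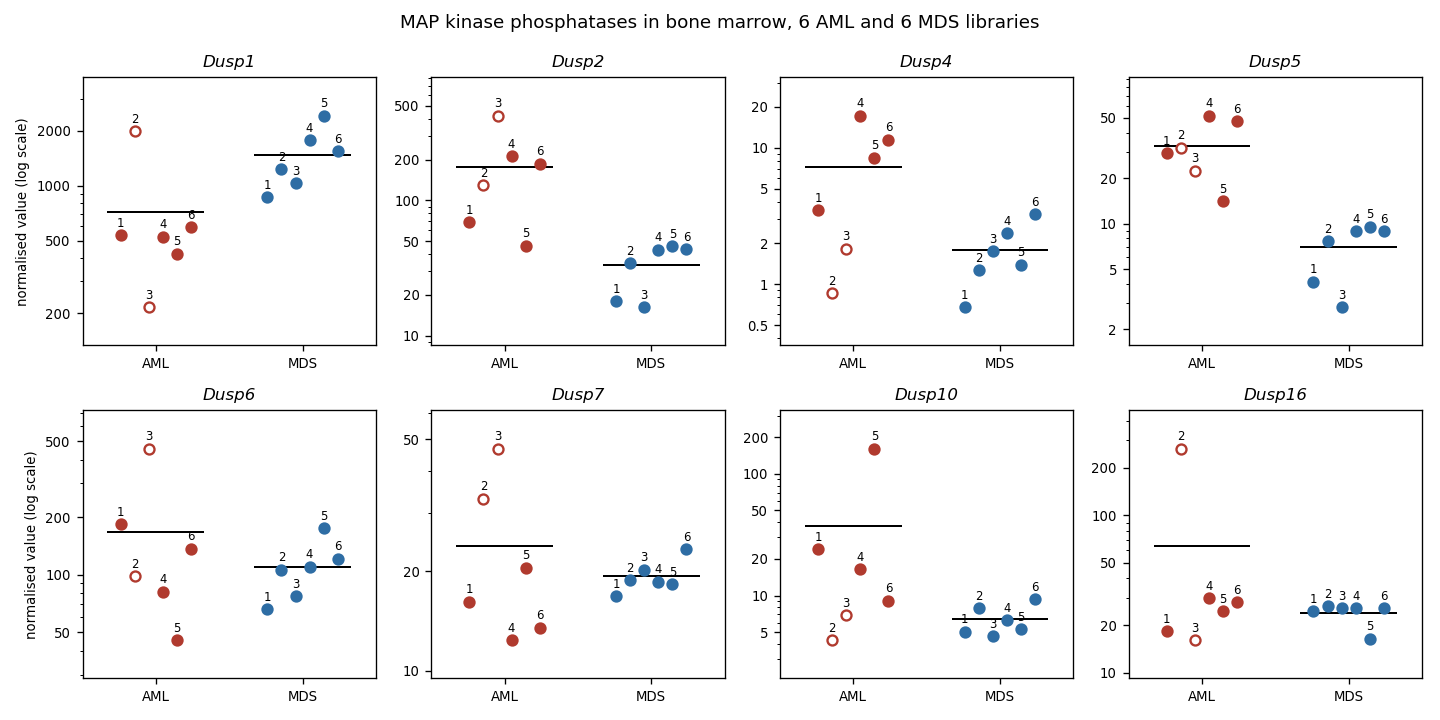
Normalised value of each phosphatase in the 6 AML (red, left) and 6 MDS (blue, right) marrow libraries, on log axes; points carry the library number, bars are group means, and open circles are the AML libraries without ENU. For Dusp2 and Dusp5 all AML points lie above all MDS points, and single AML libraries stand out for Dusp1, Dusp6, Dusp10 and Dusp16.

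Lineage genes had different ranges in these marrows too. The 12 neutrophil genes summed to 455 to 119521 in AML and 60009 to 98415 in MDS. The 12 monocyte and macrophage genes summed to 97.3 to 17489.5 in AML, the highest in AML 2 and AML 1, and 3070.0 to 8027 in MDS. The 6 erythroid genes measured of 12 summed to 372 to 5239 in AML and 6994 to 23528 in MDS. The 8 B cell genes measured of 10 summed to 53.2 to 2682 in AML, the highest in AML 3, and 96.5 to 163 in MDS. The 14 T and NK cell genes measured of 16 summed to 117 to 3706 in AML, the highest in AML 5 and AML 4, and 80.7 to 213 in MDS. Without AML 3, 4 and 5, the change was 2.28 for Dusp5 (limma adjusted p = 0.0536) and 1.90 for Dusp2 (adjusted p = 0.0681), and 0 genes passed. The AML libraries left in that fit still had erythroid sums of 613 to 3193, below every MDS library. The part of cell composition in these results was not tested.

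In AML against MDS, 73 genes were tested from lists of other dual-specificity phosphatases, feedback genes, kinases with Ras, and immediate early genes. Of these 3 passed (4.11%), near the 3.20% of all genes. Of 18 other dual-specificity phosphatases, 13 were tested, of which 1 was higher and 1 lower. Dusp18, an atypical family member, was higher at 15.8 ± 7.58 in AML and 5.10 ± 1.84 in MDS (SD, n = 6 each), and its log2 change was 1.42 ± 0.31 (limma adjusted p = 0.0435). Dusp8, which prefers JNK and p38 as Dusp10 and Dusp16 do, was lower at 6.43 ± 7.97 in AML and 38.3 ± 24.0 in MDS (-2.98 ± 0.71, limma adjusted p = 0.0462). Of 23 upstream kinases and Ras genes, 9 were higher and 14 lower in AML by their means, and 1 passed. That was Map2k6, a kinase that activates p38, higher at 17.3 ± 4.66 in AML and 8.06 ± 1.68 in MDS (1.00 ± 0.21, limma adjusted p = 0.0423). None of 14 ERK-induced feedback genes, 9 MAP kinases and 14 immediate early genes tested passed. Of them 2, 2 and 1 had an unadjusted p under 0.05, as had 3302 of all 11273 genes, so these lists held no excess. Among the feedback genes Myc averaged 165 in AML and 61.2 in MDS (limma adjusted p = 0.0970) and Etv5, an Ets factor induced by ERK, 23.2 in AML and 5.04 in MDS (adjusted p = 0.203).

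To set exposure alike, AML 1, 4 and 5 with ENU to donor and recipient were compared with the 6 MDS libraries. This comparison shares its MDS libraries and 3 AML libraries with the one above. No member passed, and 0% of the 11275 genes did by limma or edgeR, while by limma 1671 genes had an unadjusted p under 0.05. In this comparison 5 of the 8 members had groups that did not overlap, against 9.56% of genes, and 4 of them were higher (5.13% of genes) and 1 lower (4.43%). Dusp10 was 24.1, 16.4 and 161 in these 3 AML libraries, against 4.61 to 9.34 in MDS (log2 change 2.52 ± 0.59, limma adjusted p = 0.285). Dusp5 (1.95 ± 0.44) and Dusp4 (1.79 ± 0.43) had the same adjusted p. The log2 change of Dusp2 was 1.48 ± 0.55 (adjusted p = 0.295) and that of Dusp1 -1.50 ± 0.59 (adjusted p = 0.309). Without AML 1, Dusp10 (adjusted p = 0.0411) and Dusp4 (adjusted p = 0.0164) passed, and 682 genes did.

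Within AML, the same 3 libraries were compared with AML 2 and 3, which had no ENU. No member passed, against 0.408% of 11275 genes in either direction, and 3 of 8 members had groups that did not overlap, against 15.0% of genes. Dusp4 was 3.50, 17.3 and 8.48 with ENU, against 0.854 and 1.82 without (log2 change 2.01 ± 0.56, limma adjusted p = 0.145). Dusp7 was 16.2, 12.4 and 20.5 with ENU, against 33.1 and 46.9 without (-1.24 ± 0.27, limma adjusted p = 0.0777). The log2 change of Dusp10 was 2.68 ± 0.76 (adjusted p = 0.152). Which members passed turned on the library left out. Dusp4 passed without AML 1 (adjusted p = 0.0388), Dusp6 (-2.36, adjusted p = 0.0279) and Dusp7 (-1.49, adjusted p = 0.00776) without AML 2, and Dusp16 (-3.43, adjusted p = 0.00356) without AML 3. The fits without AML 2 or AML 3 rest on 1 library without ENU, which is assumed to vary like the others. AML 3 had the highest B cell sum and AML 4 and 5 the highest T and NK cell sums, so exposure and lineage genes cannot be told apart among these 5 libraries.

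In LSK cells no member passed in any of the 4 comparisons. Against WT_X, 0 of 8 passed in EAP_E (0.0171% of 11730 genes passed) and 0 of 8 in EAP (0.0256%). Between EAP_E and EAP it was 0 of 8 (0% of genes), and between WT_X and WT 0 of 8 (0.0256%). At an unadjusted p under 0.05 there was 1 member in EAP_E against EAP (5.26% of genes) and 1 in EAP_E against WT_X (3.21%), and there was none in EAP against WT_X (3.61%) and WT_X against WT (7.29%). Groups did not overlap for 1 of 8 members in EAP_E against EAP (12.7% of genes), 1 in EAP_E against WT_X (18.5%), none in EAP against WT_X (6.98%) and 1 in WT_X against WT (16.1%).

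Dusp1 had the widest change. It was 871, 191 and 236 in EAP_E 1 to 3, 3377, 3132 and 1058 in EAP, 731, 533 and 1726 in WT_X, and 484, 4562 and 485 in WT. All EAP_E libraries were below all EAP libraries, and both overlapped WT. EAP_E averaged 433 ± 380.0 and EAP 2522 ± 1274 (SD, n = 3 each), giving a log2 change of -2.71 ± 0.90 with an unadjusted p of 0.0112 that did not pass over all genes (limma adjusted p = 0.909). The high values fell on WT 2, WT_X 3 and EAP 1, the libraries that stood apart, and on EAP 2. Without the 3 that stood apart the change was -2.42 (adjusted p = 0.122).

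Immediate early genes were mostly lower in EAP_E than in EAP by their means, as Dusp1 was. Of 14 such genes 12 were lower, and the median log2 change was -1.41, against 0.03 over all genes. None passed, and 8 had an unadjusted p under 0.05, against 5.26% of genes. The summed values of the 14 genes overlapped, at 1960.2 to 7769 in EAP_E and 5299 to 18485 in EAP. EAP_E 1, the highest of its group, lay above EAP 1, the lowest of its own. Set against WT_X by their means, all 14 were higher in EAP, while in EAP_E 10 were lower and 4 higher. Fos averaged 831 ± 794 in EAP_E and 3439 ± 2313 in EAP (limma adjusted p = 0.909). Its groups overlapped, at 1747, 337 and 409 in EAP_E 1 to 3 and 1696, 6064 and 2557 in EAP 1 to 3. Heat shock genes were split, with 5 of 10 lower and 5 higher in EAP_E by their means and a median log2 change of 0.05. Among those lower, Hspa1b averaged 27.2 ± 25.3 in EAP_E and 592 ± 304 in EAP (limma adjusted p = 0.696). The part of handling in the Dusp1 values was not tested.

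Dusp2, Dusp4, Dusp5, Dusp6 and Dusp7 were lowest of their groups in the libraries that stood apart. Dusp2 was 437, 158 and 220 in EAP_E 1 to 3, 26.7, 389 and 271 in EAP, 257, 96.2 and 32.9 in WT_X, and 132, 39.0 and 421 in WT. Its lowest values were those of EAP 1, WT_X 3 and WT 2, at 26.7 to 39.0, against 96.2 to 437 in the other 9. Dusp7 was 26.7, 34.4 and 31.0 in EAP_E 1 to 3, 6.59, 31.6 and 22.6 in EAP, 22.4, 11.3 and 6.75 in WT_X, and 12.7, 10.9 and 30.4 in WT. EAP_E lay above all of WT_X (log2 change 1.27 ± 0.57, unadjusted p = 0.0460, limma adjusted p = 1.000). Without the 3 libraries that stood apart this was 0.90 (adjusted p = 0.571).

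Dusp5 was 63.6, 21 and 27.2 in EAP_E 1 to 3, 5.96, 29.4 and 31.4 in EAP, 28.4, 31.3 and 18.5 in WT_X, and 50.8, 22.2 and 57.2 in WT, so that the groups overlapped. Dusp6 was steadier, at 59.6 to 117 in EAP_E, 60.3 to 141 in EAP, 65.2 to 97.6 in WT_X and 62.5 to 113 in WT. Dusp4 was 6.87, 5.15 and 3.85 in EAP_E, against 3.20, 4.30 and 2.59 in WT_X (0.52 ± 0.53, limma adjusted p = 1.000), and was 0.80 in EAP 1 and 0.0401 in WT 2. Dusp10 was 5.42, 4.90 and 4.54 in WT_X, against 6.36, 8.81 and 6.2 in WT, with no overlap (-0.44 ± 0.29, limma adjusted p = 0.822). Dusp16 was near the detection filter, at 0.419 to 2.31 over the 12 libraries.

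**Figure D4:**
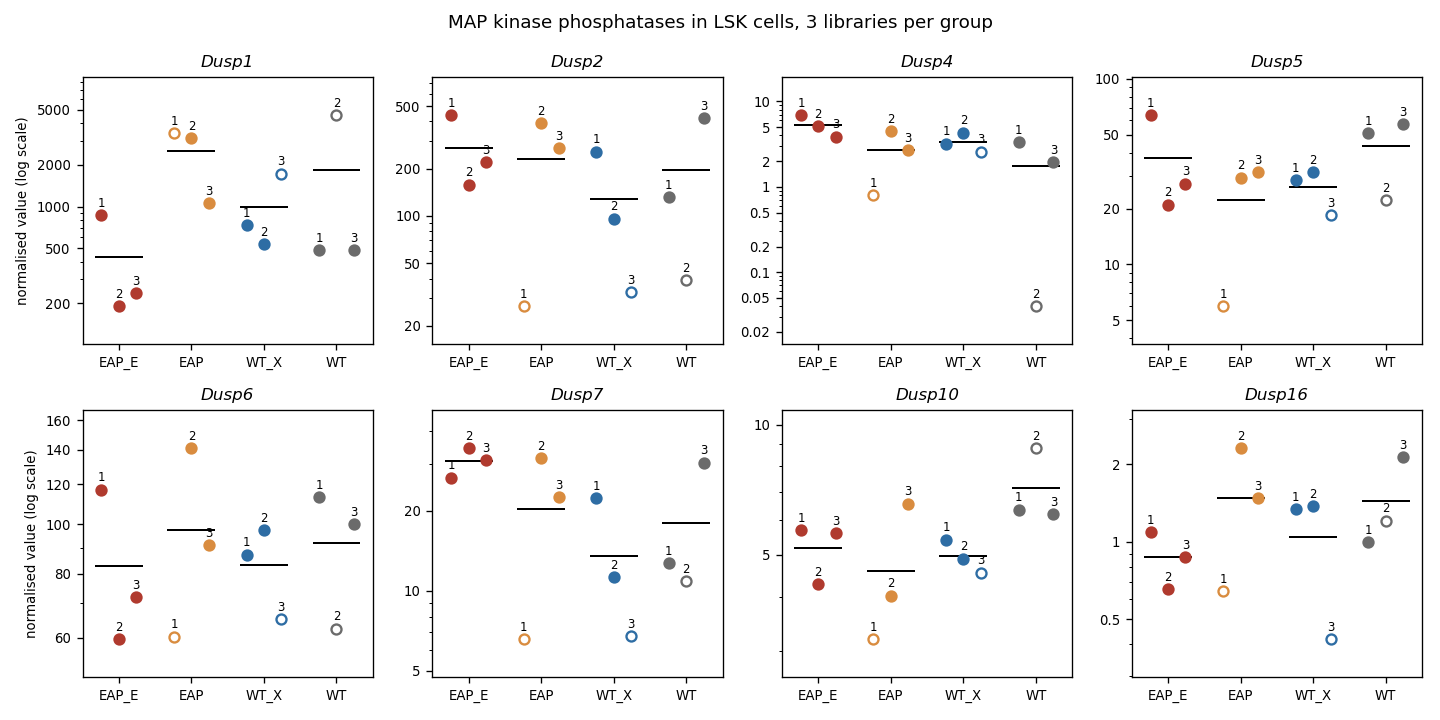
Normalised value of each phosphatase in LSK cells by group (EAP_E, EAP, WT_X and WT, 3 libraries each), on log axes; points carry the library number, bars are group means, and open circles mark EAP 1, WT_X 3 and WT 2, which stood apart. For Dusp1 the open circles are the highest of their groups, and for Dusp2, Dusp4, Dusp5, Dusp6 and Dusp7 the lowest.

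The lists of other phosphatases, feedback genes, kinases and immediate early genes held no passing gene in LSK cells with either EAP group. In EAP_E against WT_X, Spred1, an inhibitor of Ras to ERK signalling, averaged 18.8 ± 3.28 in EAP_E and 6.11 ± 2.29 in WT_X (unadjusted p = 0.0222, limma adjusted p = 1.000). It was the only 1 of 12 feedback genes with an unadjusted p under 0.05, against 3.21% of 11730 genes. Sos2, a Ras exchange factor, averaged 10.2 ± 1.51 in EAP_E and 4.93 ± 0.341 in WT_X (unadjusted p = 0.0134, limma adjusted p = 1.000). It was 1 of 2 at that level among 23 upstream kinases and Ras genes.

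In stromal cells none of the 7 members tested passed with ENU, whether or not the numbered libraries were paired. Without pairing none passed, against 0% of 12089 genes, while 2.58% of genes, 312 in all, had an unadjusted p under 0.05, none of them a member. Libraries of the same number deviated together, though no label pairs them. With the number as a block again 0% of genes passed, while 1213 genes (10.0%) and 1 of 7 members had an unadjusted p under 0.05. That member was Dusp16 (log2 change 0.22 ± 0.07, unadjusted p = 0.0397, limma adjusted p = 0.495). Dusp7 and Dusp16 were higher and Dusp10 was lower in ENU in all 3 numbered pairs, and 37.2% of genes had the same sign in all pairs. Without pairing, members' changes were -0.13 to 0.25 on the log2 scale, with SE of 0.11 to 1.05. Dusp1 was 87.5, 125 and 582 TPM in ENU 1 to 3, against 56.9, 133 and 577 TPM in mock 1 to 3. Library 3 was highest in both groups, and the groups overlapped. Dusp5 did likewise, at 8.84, 6.01 and 15.8 TPM in ENU 1 to 3, against 4.07, 5.75 and 19.1 TPM in mock. Egr1 was also highest in these libraries, at 362 TPM in ENU 3 and 646 TPM in mock 3.

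Dusp7, Dusp10 and Dusp16 varied less between libraries than Dusp1, Dusp4 and Dusp5. Dusp7 was 34.0, 35.6 and 29.3 TPM in ENU 1 to 3, against 29.5, 31.7 and 28.8 TPM in mock (log2 change 0.13 ± 0.11, limma adjusted p = 1.000). Dusp16 was 14.0, 16.7 and 14.1 TPM in ENU, against 12, 14.0 and 12.1 TPM in mock (0.22 ± 0.13, limma adjusted p = 1.000), and it was the 1 member of 7 with groups that did not overlap, against 7.07% of genes, though its lowest ENU library lay just above its highest mock library. Dusp10 was 15.1, 12.4 and 15.3 TPM in ENU, against 16.6, 13.8 and 16.6 TPM in mock. Dusp6 was 28.7 to 40.8 TPM in ENU and 27.2 to 34.5 TPM in mock, and Dusp4 was 7.61 to 26.5 TPM in ENU and 10.3 to 14.6 TPM in mock. None of 17 feedback genes passed. Phlda1 averaged 59.5 ± 19.7 TPM in ENU and 36.3 ± 4.57 TPM in mock (unadjusted p = 0.0402, limma adjusted p = 1.000).

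**Figure D5:**
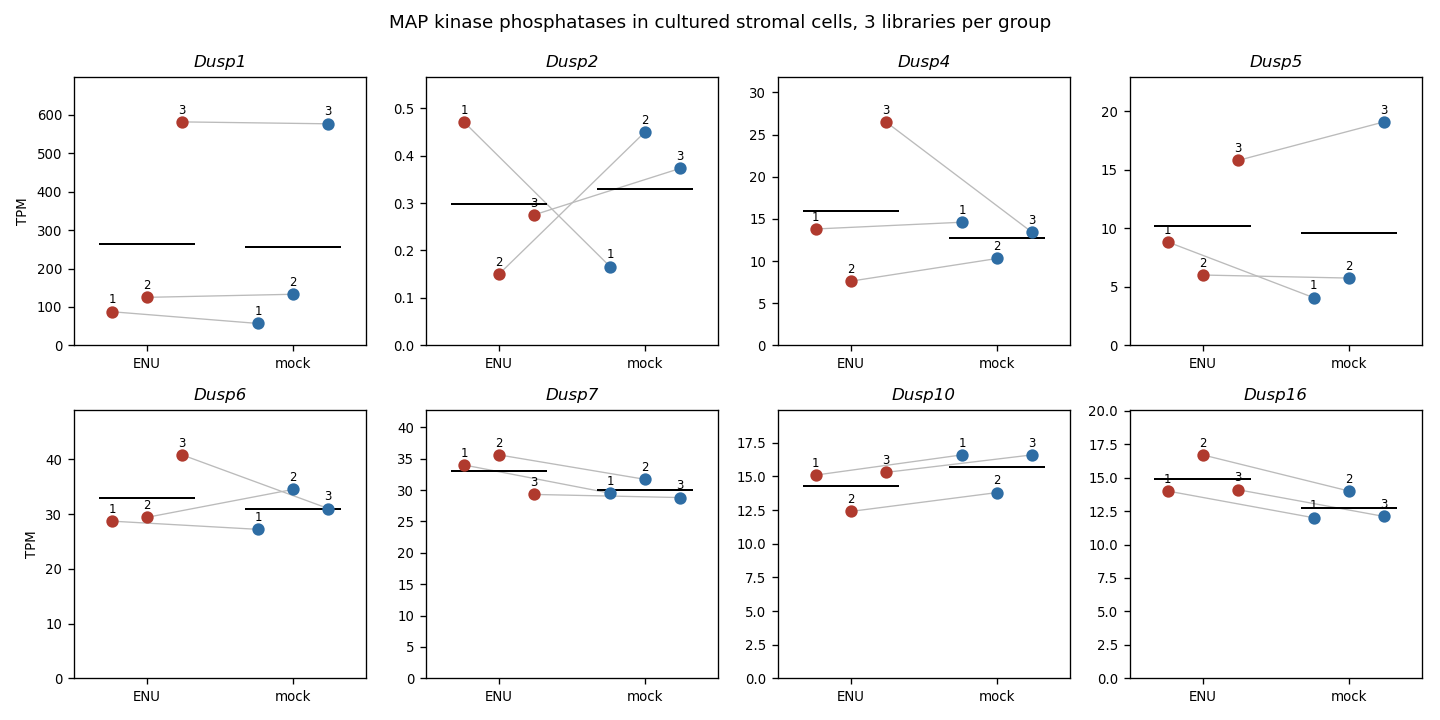
TPM of each phosphatase in stromal cells from ENU-treated (red, left) and mock-treated (blue, right) mice, on linear axes from 0; points carry the library number, grey lines join equal numbers and bars are group means. Library 3 is highest in both groups for Dusp1 and Dusp5, and in all 3 lines the ENU end is lower for Dusp10 and higher for Dusp7 and Dusp16.

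The genes most like each member across libraries were found by Pearson correlation of log2 values over the 12 LSK and the 12 marrow libraries, among genes with a mean of at least 5. These libraries share groups, and in LSK cells the 3 that stood apart, so the coefficients are descriptions. In LSK cells Dusp1 was nearest to Spsb2 (0.962) and to the immediate early gene Ier2 (0.952), Dusp2 to Irs2 (0.975) and to the survival gene Mcl1 (0.971), and Dusp6 to Chrnb1 (0.932), with the immediate early gene Zfp36 at 0.918. Dusp7 was nearest to Cdk13 (0.963), Dusp5 to Bcas3 (0.948), Dusp4 to Recql4 (0.957), Dusp10 to Brwd1 (0.906) and Dusp16 to Zfp395 (0.911). In marrow Dusp1 was nearest to Birc3 (0.948), Zfp36 (0.936) and Klf2 (0.915). There Dusp2 was nearest to Csk (0.949), a kinase that restrains Src family kinases, and Dusp5 to Map4k1 (0.903), a kinase of blood cells upstream of JNK. Dusp6 was nearest to Pik3cd (0.938), Dusp7 to Ppfibp1 (0.958), Dusp4 to Znf579 (0.915) and Dusp10 to Maged1 (0.899). Dusp16 was nearest to Cfb (0.985) and Cp (0.975), both plasma protein genes, and AML 2 was its highest library. No member had a gene among its closest 3 in both tables.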

How the data were processed

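Expression was measured by RNA sequencing in 30 libraries. Per the labels' protocols, TRIzol was used for RNA and the TruSeq Stranded mRNA kit for libraries. Per the submitters' processing notes, bcl2fastq, FastQC, TopHat, SAMtools and edgeR were used with mm10. The counting program, its strand setting, the annotation and all versions remain not given in the sources used here.

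Deposited LSK and marrow values are called CPM by the authors, but their library totals vary and are not those of CPM, so they were treated as a normalised signal. The deposited stromal values are TPM. The tests had been planned for CPM, and the log-scale test fits this signal as well. In each marrow library 99.99 to 100% of values were whole multiples (within 0.05) of what 1 read is worth, which gave reads for edgeR 4.0.16. No step was found in LSK values and TPM keeps no depth, so depth is unknown there. In marrow 155 repeated rows were merged.

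limma 3.58.1 (R 4.3.3, eBayes with trend) was run on log2(value + 1) over all genes that reached a value of 1 in enough libraries to fill the smaller group compared. p-values are two-sided and Benjamini-Hochberg adjusted over all genes tested, with a threshold of 0.05. All 4 LSK groups entered 1 fit, as did all 12 marrow libraries. This scale understates changes of low values. Labels give mouse tags for marrow alone. p-values elsewhere measure only the spread between libraries, which may be technical. The tests were tried on simulated data.

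The members and the 14 gene lists were chosen with earlier results of these data known. All 8 members are named. Of a list, members past the threshold are named, or some of the 3 with the smallest p where none passed. For likeness, the closest genes by correlation are named. Single markers of a library were chosen after their values were seen. Positions and exon lengths are from GENCODE (mm10). Alternatives tried were median-of-ratios rescaling, a pseudocount of 0.1, testing without the filter, edgeR on marrow reads, other sample sets, each library left out and a replicate block. Fits without libraries that stand apart, or with a term for them, were added after seeing the data. In stromal cells, deviations of same-numbered libraries correlated at 0.472, 0.658 and 0.704. No label says that the numbers mark a shared day or culture, so the pairing is read from these values alone. Python 3.11.15, pandas 2.3.3 and matplotlib 3.10.9 were used.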

Additional observations from a re-analysis of the deposited data

Results flagged for a closer look

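In 16 groups of member values with 6 libraries each, a single library lay far from the rest of its group 5 times. The rule used marks about 1 in 20 groups of normally distributed values, and these values were not put on a log scale. It marked 4 of 8 members in AML, where 15.6% of all genes had such a library, and 1 of 8 in MDS, where 7.92% did. Dusp1 was 1998 in AML 2, and the next highest AML library was at 593. Dusp16 was 266 in the same library, which had the highest monocyte and macrophage sum, with the next highest at 29.8. Dusp6 was 457 in AML 3, the library with the highest B cell sum, and the next highest was 183. Dusp10 was 161 in AML 5, the library with the highest T and NK cell sum, and the next highest was 24.1. Dusp16 was 16.4 in MDS 5, below the next lowest MDS library at 24.5. The 2 values of AML 2 and those of AML 3 and AML 5 come from the same few marrows and are not separate events. Whether lineage or disease accounts for them was not tested.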

How the results depend on the processing

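Of 829 member changes recomputed under an alternative, 749 kept direction and side of the threshold, 21 lost the call, 7 gained one and 52 changed sign. None of the 52 had passed with all libraries. In AML against MDS, 2 members passed, against 1 with a pseudocount of 0.1 (Dusp5, with Dusp2 at adjusted p = 0.0506), 1 with the replicate block (Dusp5 at 0.0432, Dusp2 at 0.0906), 0 without AML 3, AML 4 and AML 5, and 0 to 3 without single libraries. The labels pair no libraries by number, and same-numbered correlations were -0.156 to 0.232 in marrow and -0.636 to 0.325 in LSK cells. The stromal block changed no call and took the genes with an unadjusted p under 0.05 to 1213, against 312 without it. AML with ENU against MDS gave 0 members, and 0 to 2 without single libraries, and AML with ENU against AML without ENU likewise 0, and 0 to 2. Over all genes, AML against MDS called 112 higher and 249 lower with limma, 36 and 109 with a pseudocount of 0.1, 6 and 135 with the block, and 295 and 153 with edgeR. Without the LSK libraries that stand apart, Dusp1 was 0.36 in WT_X against WT, Dusp5 0.03 and Dusp10 0.00 in EAP against WT_X, and Dusp2 -0.39 and Dusp10 -0.00 in EAP_E against EAP. A term for them gave Dusp5 -0.08 in EAP_E against WT_X and Dusp2 -0.13 in EAP_E against EAP. Rescaling gave Dusp16 -0.02 in AML with ENU against MDS. Without stromal mock 3 and ENU 3, Dusp4 was -0.23 and Dusp6 -0.08. Each library left out in turn turned signs as follows. In WT_X against WT, Dusp1 ran from -0.76 to 0.85, Dusp2 from -1.32 to 0.38, Dusp6 from -0.37 to 0.05 and Dusp7 from -0.82 to 0.03. In EAP against WT_X, Dusp2 ran from -0.15 to 1.78, Dusp4 from -0.74 to 0.07, Dusp5 from -0.86 to 0.25, Dusp6 from -0.15 to 0.46 and Dusp10 from -0.37 to 0.05. In EAP_E against WT_X, Dusp5 ran from -0.09 to 0.69, Dusp6 from -0.32 to 0.16, Dusp10 from -0.01 to 0.16 and Dusp16 from -0.34 to 0.03. In EAP_E against EAP, Dusp2 ran from -0.39 to 1.52, Dusp6 from -0.51 to 0.10 and Dusp10 from -0.00 to 0.43. In AML against MDS, Dusp6 ran from -0.08 to 0.58, Dusp7 from -0.09 to 0.27 and Dusp16 from -0.06 to 0.73. In AML with ENU against MDS, Dusp6 ran from -0.76 to 0.23 and Dusp16 from -0.15 to 0.18. In AML with ENU against AML without ENU, Dusp1 ran from -2.02 to 1.19, Dusp5 from -0.38 to 0.53 and Dusp16 from -3.43 to 0.54. In stromal ENU against mock, Dusp1 ran from -0.64 to 1.08, Dusp4 from -0.27 to 0.56, Dusp5 from -0.15 to 0.84 and Dusp6 from -0.08 to 0.17. The cause was not tested. The fewest reads behind a marrow value were 12 (Dusp4 in MDS 1), and depth is unknown elsewhere.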
